A study of Mus musculus with 7 samples.

Results

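The suppressor of cytokine signalling (SOCS) family is described here through 7 genes, Socs1, Socs2, Socs3, Cish, Socs5, Socs6 and Socs7, and through RelA and RelB chromatin immunoprecipitation (ChIP) signal at the regions assigned to them. The members were the regions of the deposited table whose nearest gene is 1 of the 7 and whose distance to that gene's transcription start site (TSS) is at most 100 kb. This gave 72 of 93611 regions: 21 for Socs1, 5 for Socs2, 7 for Socs3, 6 for Cish, 10 for Socs5, 17 for Socs6 and 6 for Socs7. No region of the table carried the name of the remaining family gene, Socs4. The assignment rests on distance alone, so a region may act on another gene or on none.

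All 7 libraries came from bone marrow-derived dendritic cells (BMDCs) of C57BL/6 mice, antigen-presenting cells grown from femur marrow in medium that held GM-CSF (20 ng/ml) together with IL-4 (10 ng/ml) and was renewed on days 3 and 6. Both cytokines signal through the pathway that SOCS proteins restrain, and cells of every group were grown in them. RelBko cells, which lack RelB, gave a RelA library after 1 h of lipopolysaccharide (LPS) at 10 ng/mL, a RelB library after 1 h of LPS and a RelB library without LPS (0 h). WT cells gave the same 3 libraries and an input library of unprecipitated DNA, whose label states no time or treatment. Each group held 1 library, from about 10 M cells crosslinked by DSG (1.0 mM) together with PFA (1.0%), so differences between groups have no replicate check and no p-value is given. The labels do not say how the RelBko cells were made or whether animals were pooled. The treatment text names LPS beside a reagent whose name is that of a CpG oligonucleotide, and the protocol text names only the RelA antibody although the sample labels name both antibodies. The question of the series is whether RelA occupies DNA differently when RelB is missing.

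SOCS proteins are feedback inhibitors of cytokine receptors that signal through Janus kinases (JAK) and STAT transcription factors. Each has an SH2 domain, which binds phosphorylated tyrosines on receptors or kinases, and a SOCS box, which recruits an elongin and cullin ubiquitin ligase. SOCS1 and SOCS3 also carry a short region that blocks JAK activity directly, CIS (the product of Cish) and SOCS2 occupy receptor docking sites, and SOCS5, SOCS6 and SOCS7 have been linked more to receptor tyrosine kinase and insulin signalling. In dendritic cells SOCS1 and SOCS3 are known as brakes on interferon, interleukin and Toll-like receptor responses. RelA and RelB belong to NF-kB, the transcription factor family activated by Toll-like receptors. ChIP signal shows where these proteins were found on DNA and says nothing of the expression of the genes.

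Every member gene had a promoter region, so the start sites themselves carried signal, and the promoters of 3 of the 7 could be matched to RefSeq windows (GRCm38.p6). They are shown because only these members had a window, from 250 bases before the start up to the start, with matches to the STAT motif in capitals. The Socs1 window is chr16:10785537-10785786 (minus strand, 61.2% GC), the Socs3 window chr11:117969367-117969616 (minus strand, 71.6% GC) and the Cish window chr9:107296409-107296658 (plus strand, 55.2% GC).
Socs1 promoter: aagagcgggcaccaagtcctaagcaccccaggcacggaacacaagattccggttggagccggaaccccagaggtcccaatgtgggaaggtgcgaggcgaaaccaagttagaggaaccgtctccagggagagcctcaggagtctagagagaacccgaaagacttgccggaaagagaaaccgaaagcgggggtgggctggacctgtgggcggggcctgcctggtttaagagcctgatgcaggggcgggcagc
Socs3 promoter: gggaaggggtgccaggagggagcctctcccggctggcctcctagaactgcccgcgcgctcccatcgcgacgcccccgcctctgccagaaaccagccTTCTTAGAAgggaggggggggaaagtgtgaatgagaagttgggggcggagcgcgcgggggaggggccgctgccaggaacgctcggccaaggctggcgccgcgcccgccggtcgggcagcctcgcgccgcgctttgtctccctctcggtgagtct
Cish promoter: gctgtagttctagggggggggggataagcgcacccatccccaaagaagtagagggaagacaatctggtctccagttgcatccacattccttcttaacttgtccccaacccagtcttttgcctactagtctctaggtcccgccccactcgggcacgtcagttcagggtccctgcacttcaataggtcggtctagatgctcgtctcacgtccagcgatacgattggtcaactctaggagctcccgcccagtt
The Cish start itself, the first 20 transcribed bases at chr9:107296659-107296678, is given as well because it holds a pair of matches separated by 2 bases.
Cish start: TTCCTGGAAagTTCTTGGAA
The STAT motif searched was TTCNNNGAA, a palindrome that reads the same on both strands. It matched once upstream of Socs3, at positions -154 to -146 from the start, and at positions 1 to 9 and 12 to 20 of Cish, where 1 is the first transcribed base. The Socs1 window held no match. Of 32851 RefSeq promoter windows, 7.02% held the motif in the 250 upstream bases and 8.30% in the 250 upstream and 50 downstream bases together. The kappa B motif of NF-kB (7.25% of windows upstream, 8.46% with the downstream bases) and CCGGAAG, a core of ETS factor motifs (6.91% and 8.86%), both searched on both strands, were not among the letters of the 3 windows. A match is a description and not a measured site. These windows use a later assembly than the ChIP regions, which are in mm9, and were not placed on them base by base.

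Signal is given as RPKM, reads divided by the length of the region and by the size of the library. A region was called enriched if it had at least 2 RPKM and at least 2-fold the input, after adding 0.5 RPKM to both. Of the 72 member regions, 70 were enriched in at least 1 ChIP library, 12 in all 6, and the remaining 2, both of Socs6, in none. By library, enriched member regions numbered 64 for RelA in RelBko cells, where 75.9% of all regions of the table were enriched, and 60 for RelA in WT cells, against 82.0% of all regions. For RelB at 1 h they numbered 13 in RelBko cells, against 6.36% of all regions, and 61 in WT cells, against 81.7%. For RelB at 0 h they numbered 27 in RelBko cells, against 24.1%, and 57 in WT cells, against 75.9%. Pooled over the 72 regions, RelA signal was 21.8 RPKM in RelBko cells and 21.4 RPKM in WT cells, against 10.6 RPKM in RelBko cells and 10.8 RPKM in WT cells over the whole table. Input over the members was 1.16 RPKM, against 1.00 RPKM over the whole table.

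The libraries held 13188833 to 35064429 reads, and 37.2% to 42.4% of the reads of the RelA libraries and the WT RelB libraries fell in the regions. In the RelBko RelB libraries 4.62% at 1 h and 7.41% at 0 h did, against 3.52% of the input. Dendritic cell markers carried signal throughout: all 9 had an enriched region, at 49.6 to 161 RPKM for WT RelB at 1 h. In that library 4 macrophage markers (Adgre1 counted once) lay at 28.1 to 76.8 RPKM and 4 of 4 T and NK cell markers at 13.4 to 25.6 RPKM. These were all enriched too. The 4 of 5 neutrophil markers with a region lay at 1.24 to 11.7 RPKM, with 2 enriched. The 3 of 4 B cell markers with a region lay at 1.33 to 7.98 RPKM, with 2 enriched. Of all regions 81.7% were enriched in that library, so an enriched region does not tell dendritic cells from the other types. Each marker was read by its strongest region within 100 kb, and none of this reports expression.

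Socs3, whose product binds the gp130 chain of the IL-6 receptor family, had the strongest signal per length of the family. Its 7 regions (TSS at 117830680 on the minus strand of chr11) ran from 8651 bp upstream to 36912 bp downstream of the start. Pooled over them, RelA signal was 61.3 RPKM in RelBko cells and 60.1 RPKM in WT cells. RelB signal at 1 h was 4.35 RPKM in RelBko cells and 60.0 RPKM in WT cells, and at 0 h it was 5.61 RPKM in RelBko cells and 37.4 RPKM in WT cells, with 1.18 RPKM in the input. Beside the input, only the RelBko RelB libraries were low.
The strongest Socs3 region was not the promoter but an intergenic one 22709 bp downstream (chr11:117807697-117808245). RelA there reached 116 RPKM in RelBko cells and 115 RPKM in WT cells, RelB at 1 h 7.47 RPKM in RelBko cells and 111 RPKM in WT cells, RelB at 0 h 6.77 RPKM in RelBko cells and 66.1 RPKM in WT cells, and the input 1.24 RPKM. Among 18215 genes, each represented by its strongest region within 100 kb, Socs3 ranked 132nd by mean signal (the top 0.725%) and 50th in the WT RelA library. Other strong Socs3 regions lay at 8651 bp upstream, with RelA at 81.6 RPKM in RelBko cells and 86.8 RPKM in WT cells, and at 9190 bp downstream, with 80.8 RPKM in RelBko cells and 85.5 RPKM in WT cells. The promoter region (chr11:117830362-117830811, centred 94 bp downstream of the start) was weaker. RelA there was 58.3 RPKM in RelBko cells and 49.5 RPKM in WT cells, RelB at 1 h was 4.67 RPKM in RelBko cells and 40.3 RPKM in WT cells, RelB at 0 h was 8.39 RPKM in RelBko cells and 28.5 RPKM in WT cells, and the input was 1.01 RPKM.

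Socs1, whose product inhibits JAK kinases and restrains interferon signalling, had the most regions. Its 21 regions (TSS at 10785629 on the minus strand of chr16) formed a chain from the promoter to 95429 bp downstream, and none lay farther upstream than 39 bp. Pooled, RelA signal was 21.9 RPKM in RelBko cells and 21.1 RPKM in WT cells. RelB signal at 1 h was 1.90 RPKM in RelBko cells and 24.8 RPKM in WT cells, and at 0 h it was 3.54 RPKM in RelBko cells and 25.5 RPKM in WT cells, with 1.34 RPKM in the input. Pooled WT RelB was thus about as strong after LPS as before it.
The strongest Socs1 region was intergenic, 26522 bp downstream (chr16:10758933-10759281). RelA there was 56.8 RPKM in RelBko cells and 53.8 RPKM in WT cells, RelB at 1 h 2.50 RPKM in RelBko cells and 64.1 RPKM in WT cells, RelB at 0 h 5.74 RPKM in RelBko cells and 78.4 RPKM in WT cells, and the input 0.652 RPKM. The promoter region (chr16:10785512-10785825) was nearly as strong. It held RelA at 47.6 RPKM in RelBko cells and 46.5 RPKM in WT cells, RelB at 1 h at 3.43 RPKM in RelBko cells and 60.3 RPKM in WT cells, RelB at 0 h at 10.9 RPKM in RelBko cells and 63.7 RPKM in WT cells, and 1.45 RPKM in the input. A second region starts 9 bp from the promoter region, so the same DNA fragments can count in both. Regions from 44237 bp downstream onwards are classed as intronic although Socs1 itself is short. In the order of genes on GRCm38, Socs1 lies between Clec16a and Tnp2, and the deposited class does not name the gene whose intron is meant.

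Cish, the founding family member, encodes CIS, which competes for STAT5 docking sites on receptors. Its 6 regions (TSS at 107198990 on the plus strand of chr9) lay between 715 bp upstream and 16411 bp downstream. Pooled, RelA signal was 41.8 RPKM in RelBko cells and 41.5 RPKM in WT cells. RelB signal at 1 h was 2.48 RPKM in RelBko cells and 40.8 RPKM in WT cells, and at 0 h it was 5.36 RPKM in RelBko cells and 26.1 RPKM in WT cells, with 1.47 RPKM in the input. By this pooled signal per length it came second to Socs3 in each WT ChIP library. By its strongest region it stood lower, at 2104th of 18215 genes for WT RelA. Socs3 (50th), Socs6 (688th), Socs1 (1180th) and Socs2 (1526th) were ahead of it there.
The strongest Cish region lay at the end of a transcript (class TTS), 6668 bp downstream of the start (chr9:107205483-107205834). RelA there was 43.9 RPKM in RelBko cells and 42.0 RPKM in WT cells, RelB at 1 h 2.77 RPKM in RelBko cells and 85.4 RPKM in WT cells, RelB at 0 h 5.04 RPKM in RelBko cells and 53.4 RPKM in WT cells, and the input 1.72 RPKM. The region nearest the start (chr9:107198877-107199236, centred 66 bp downstream) had RelA at 31.2 RPKM in RelBko cells and 25.6 RPKM in WT cells, RelB at 1 h at 2.14 RPKM in RelBko cells and 30.1 RPKM in WT cells, RelB at 0 h at 6.04 RPKM in RelBko cells and 22.1 RPKM in WT cells, and 1.47 RPKM in the input.

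Socs2, best known as a brake on growth hormone signalling, had 5 regions and 2 annotated starts on the minus strand of chr10. Pooled, RelA signal was 26.9 RPKM in RelBko cells and 24.9 RPKM in WT cells. RelB signal at 1 h was 2.81 RPKM in RelBko cells and 29.4 RPKM in WT cells, and at 0 h it was 4.68 RPKM in RelBko cells and 19.1 RPKM in WT cells, with 1.64 RPKM in the input. Each start had its own promoter region, and these 2 held most of the signal.
At the upstream start (chr10:94879381-94879752, 75 bp before it), RelA was 51.3 RPKM in RelBko cells and 48.3 RPKM in WT cells, RelB at 1 h 6.48 RPKM in RelBko cells and 61.9 RPKM in WT cells, RelB at 0 h 10.6 RPKM in RelBko cells and 59.9 RPKM in WT cells, and the input 2.04 RPKM. At the other start (chr10:94877767-94878149, 41 bp before it), RelA was 54.4 RPKM in RelBko cells and 43.9 RPKM in WT cells, RelB at 1 h 3.88 RPKM in RelBko cells and 39.3 RPKM in WT cells, RelB at 0 h 6.12 RPKM in RelBko cells and 20.3 RPKM in WT cells, and the input 2.18 RPKM. The 3 remaining regions, 7179 to 19938 bp downstream, were weaker.

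Socs5, Socs6 and Socs7, the members less tied to cytokine induction, had lower pooled signal. For Socs5 (10 regions, TSS at 87507019 on the plus strand of chr17) RelA was 10.7 RPKM in RelBko cells and 10.5 RPKM in WT cells, and RelB at 1 h was 1.32 RPKM in RelBko cells and 8.38 RPKM in WT cells. For Socs6 (17 regions, TSS at 89063599 on the minus strand of chr18) RelA was 8.26 RPKM in RelBko cells and 8.50 RPKM in WT cells, and RelB at 1 h was 1.06 RPKM in RelBko cells and 12.8 RPKM in WT cells. For Socs7 (6 regions, TSS at 97223865 on the plus strand of chr11) RelA was 7.23 RPKM in RelBko cells and 8.05 RPKM in WT cells, and RelB at 1 h was 1.05 RPKM in RelBko cells and 5.41 RPKM in WT cells. RelB at 0 h was 2.01 RPKM in RelBko cells and 6.55 RPKM in WT cells for Socs5, 2.03 RPKM in RelBko cells and 11.4 RPKM in WT cells for Socs6, and 1.93 RPKM in RelBko cells and 5.75 RPKM in WT cells for Socs7. Set against the whole table in WT cells, which had 10.8 RPKM for RelA and 12.1 RPKM for RelB at 1 h, Socs5 and Socs7 lay under both values and Socs6 under the RelA value only.
Single regions of Socs5 and Socs6 were strong all the same. An intronic Socs5 region 11409 bp downstream (chr17:87518255-87518601) had RelA at 50.3 RPKM in RelBko cells and 41.8 RPKM in WT cells, RelB at 1 h at 4.88 RPKM in RelBko cells and 28.1 RPKM in WT cells, RelB at 0 h at 4.94 RPKM in RelBko cells and 15.2 RPKM in WT cells, and 0.656 RPKM in the input. The Socs5 promoter region (chr17:87506733-87507084) had RelA at 20.3 RPKM in RelBko cells and 23.1 RPKM in WT cells, RelB at 1 h at 1.89 RPKM in RelBko cells and 26.3 RPKM in WT cells, RelB at 0 h at 6.99 RPKM in RelBko cells and 33.8 RPKM in WT cells, and 1.51 RPKM in the input. Socs6 had the strongest RelB region of the family, intergenic and 55694 bp downstream of its start (chr18:89007736-89008074). RelA there was 56.5 RPKM in RelBko cells and 64.9 RPKM in WT cells, RelB at 1 h 2.57 RPKM in RelBko cells and 130 RPKM in WT cells, RelB at 0 h 9.95 RPKM in RelBko cells and 115 RPKM in WT cells, and the input 1.34 RPKM. By its strongest region Socs6 ranked 65th of the 18215 genes for WT RelB at 1 h, ahead of Socs3 at 166th. Its promoter region (chr18:89063377-89063921) had RelA at 10.9 RPKM in RelBko cells and 11.5 RPKM in WT cells, RelB at 1 h at 1.04 RPKM in RelBko cells and 10.8 RPKM in WT cells, RelB at 0 h at 3.15 RPKM in RelBko cells and 12.2 RPKM in WT cells, and 1.67 RPKM in the input. Socs7 had its strongest region at its promoter (chr11:97223386-97223802), and that region was the weakest of the 7 strongest ones. It held RelA at 14.1 RPKM in RelBko cells and 11.3 RPKM in WT cells, RelB at 1 h at 1.97 RPKM in RelBko cells and 10.6 RPKM in WT cells, RelB at 0 h at 4.53 RPKM in RelBko cells and 10.9 RPKM in WT cells, and 1.82 RPKM in the input.

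**Figure D1:**
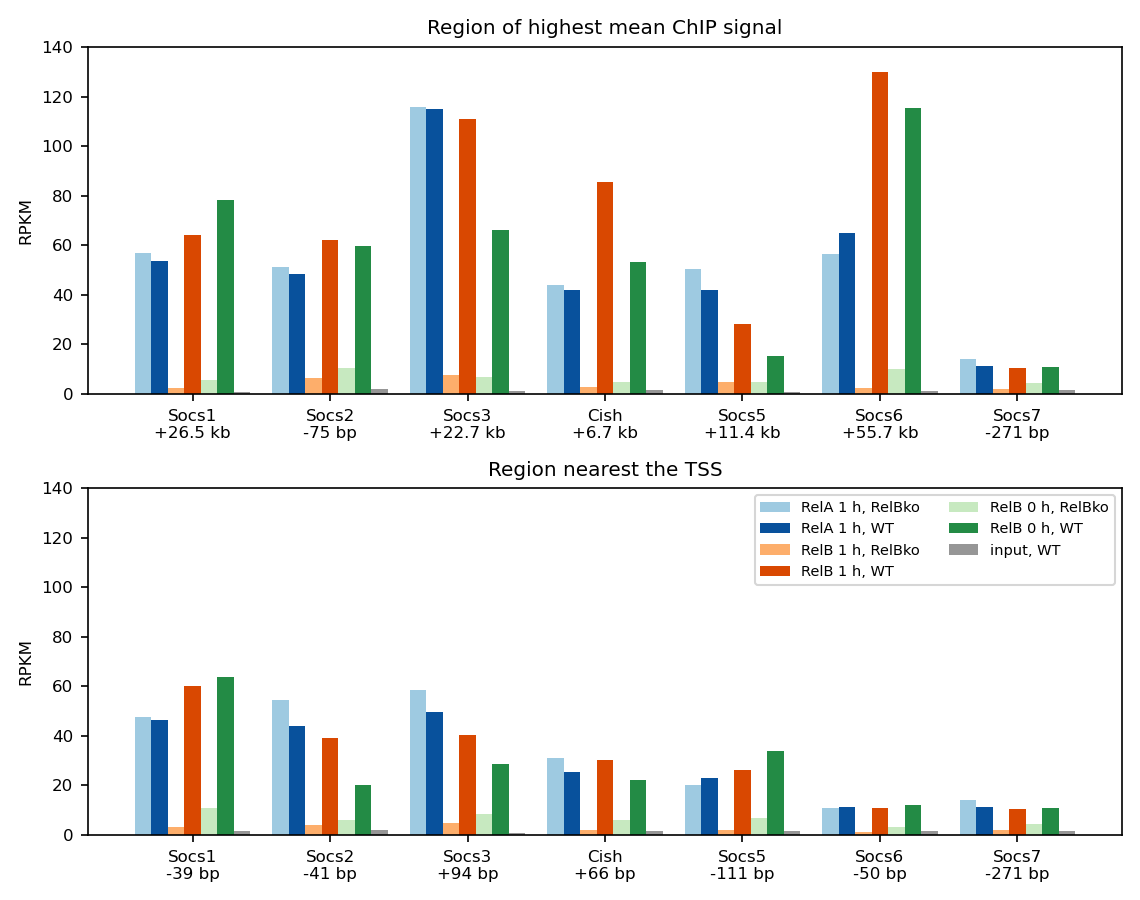
RPKM in each of the 7 libraries at the region of highest mean ChIP signal (upper panel) and at the region nearest the TSS (lower panel) of each SOCS family gene, with the distance to the TSS under the gene name. Each bar is 1 library, so there are no error bars. Both RelA bars of a gene stand close together, both RelBko RelB bars stay at 10.9 RPKM or less, and the Socs6 region has the tallest WT RelB bar (130 RPKM at 1 h).

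Ordered by pooled RPKM in the WT RelA library, the genes ran Socs3, Cish, Socs2, Socs1, Socs5, Socs6 and Socs7. Exact Poisson 95% intervals, which cover counting error only, overlapped between neighbours of that order just for Socs6 (7.96 to 9.08 RPKM) and Socs7 (7.21 to 8.95 RPKM). For WT RelB at 1 h the order was the same except that Socs6 stood above Socs5, with no overlap between neighbours. For WT RelB at 0 h Cish (25.0 to 27.2 RPKM) and Socs1 (24.9 to 26.1 RPKM) overlapped, as did Socs5 (6.12 to 7.01 RPKM) and Socs7 (5.25 to 6.29 RPKM). In the input Socs3 stood at place 4 of 7, and the intervals of all neighbours overlapped.

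**Figure D2:**
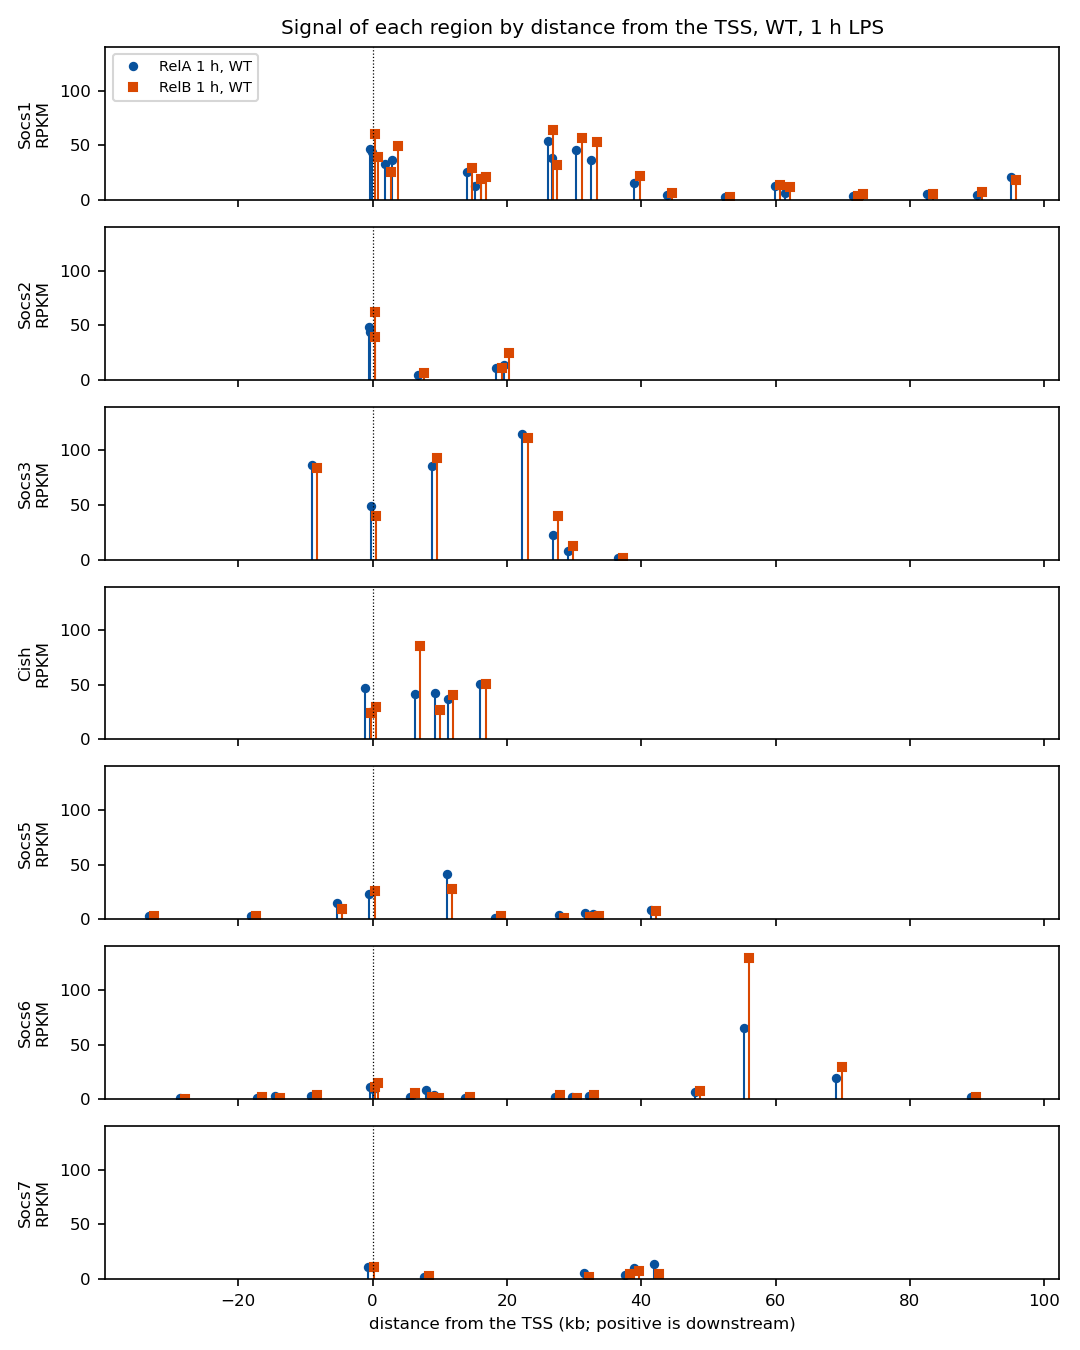
RPKM of every member region in WT cells after 1 h of LPS against the distance of its centre from the TSS in kb (positive is downstream), 1 row per gene, with circles for RelA and squares for RelB, each moved slightly sideways to keep both visible. Socs1 carries a chain of 21 regions, Socs3 has its tallest region at 22.7 kb (115 RPKM for RelA), and the Socs6 signal is concentrated at 55.7 kb.

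By position, the 9 promoter regions had median RelA signal of 40.1 RPKM in RelBko cells and 43.9 RPKM in WT cells. The 48 regions beyond 10 kb had medians of 6.20 RPKM in RelBko cells and 6.66 RPKM in WT cells, although the highest RelA value of the family, 116 RPKM in RelBko cells, was among them. The 15 other regions within 10 kb lay between, at 12.1 RPKM in RelBko cells and 14.7 RPKM in WT cells. By class, 41 regions were intergenic, 18 intronic, 9 promoter, 2 at transcript ends and 2 in 3' UTRs. Just inside the distance limit, the Socs1 region at 95429 bp had WT RelA at 21.2 RPKM and the one at 90369 bp 4.14 RPKM. Just outside it, a Socs6 region at 100500 bp had 5.08 RPKM and a Socs1 region at 101986 bp 2.21 RPKM. In all, 13 regions of these genes lay beyond the limit, 10 of Socs6 and 3 of Socs1.

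RelA signal at the SOCS genes after 1 h of LPS was nearly the same in RelBko and WT cells. Of 65 member regions that were enriched in RelBko cells, WT cells or both, 1 was 2-fold or more higher in RelBko cells, where 1.30% of all regions compared were, and 1 was 2-fold or more lower, where 4.94% of all were. Folds were taken as log2 ratios after adding 0.5 RPKM, which makes the fold of a weak region smaller than it was. The median log2 ratio was 0.03 over the members, ranging between -1.08 and 1.03, against -0.06 over all 80885 regions compared. There were 35 member regions above 0 and 30 below. The pooled ratio of RelBko over WT cells was 1.02 over all members (exact Clopper-Pearson 95% interval 0.994 to 1.05). By gene it was 1.02 for Socs3 (0.971 to 1.07), 1.01 for Cish (0.947 to 1.07), 1.04 for Socs1 (0.990 to 1.09) and 1.08 for Socs2 (0.986 to 1.18). It was 1.02 for Socs5 (0.925 to 1.13), 0.972 for Socs6 (0.891 to 1.06) and 0.899 for Socs7 (0.777 to 1.04). All 7 intervals include 1, the lowest bound being that of Socs7 and the highest that of Socs2. Pooling joins regions that differ, and Socs1 regions had intervals on both sides of 1. Examples are 0.587 (0.416 to 0.826) at 15684 bp and 0.599 (0.432 to 0.829) at 61753 bp downstream. On the other side were 1.43 (1.20 to 1.72) at 2313 bp and 1.30 (1.14 to 1.49) at 30757 bp.
At the strongest Socs3 region the ratio was 1.01 (0.932 to 1.09). Of the strongest regions, only that of Socs5 had an interval wholly above 1, at 1.20 (1.03 to 1.41), and that of Socs6 one wholly below, at 0.871 (0.759 to 0.9996). Among the regions nearest the start, Socs2 had a ratio of 1.24 (1.07 to 1.43) and Socs3 one of 1.18 (1.04 to 1.34). The intervals of the other 5 included 1, at 1.25 for Socs7 (0.944 to 1.66), 1.22 for Cish (0.9996 to 1.49), 1.02 for Socs1 (0.869 to 1.21), 0.948 for Socs6 (0.734 to 1.23) and 0.878 for Socs5 (0.699 to 1.10). No promoter region passed 2-fold. Both regions that did were weak, and each was enriched in only 1 of the 2 libraries. The intronic Socs1 region 44237 bp downstream (chr16:10741182-10741602) had 1.79 RPKM (18 reads) in RelBko cells and 4.32 RPKM (32 reads) in WT cells, a ratio of 0.413 (0.218 to 0.758). The Socs6 region 16864 bp upstream had 2.29 RPKM (18 reads) in RelBko cells and 0.867 RPKM (5 reads) in WT cells, a ratio of 2.64 whose interval of 0.946 to 9.11 includes 1. Across the 72 regions, log2(RPKM + 0.5) of RelA in RelBko and WT cells correlated with Pearson's r = 0.978, against 0.938 over all regions, as a description of 2 libraries over regions that are not independent.

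**Figure D3:**
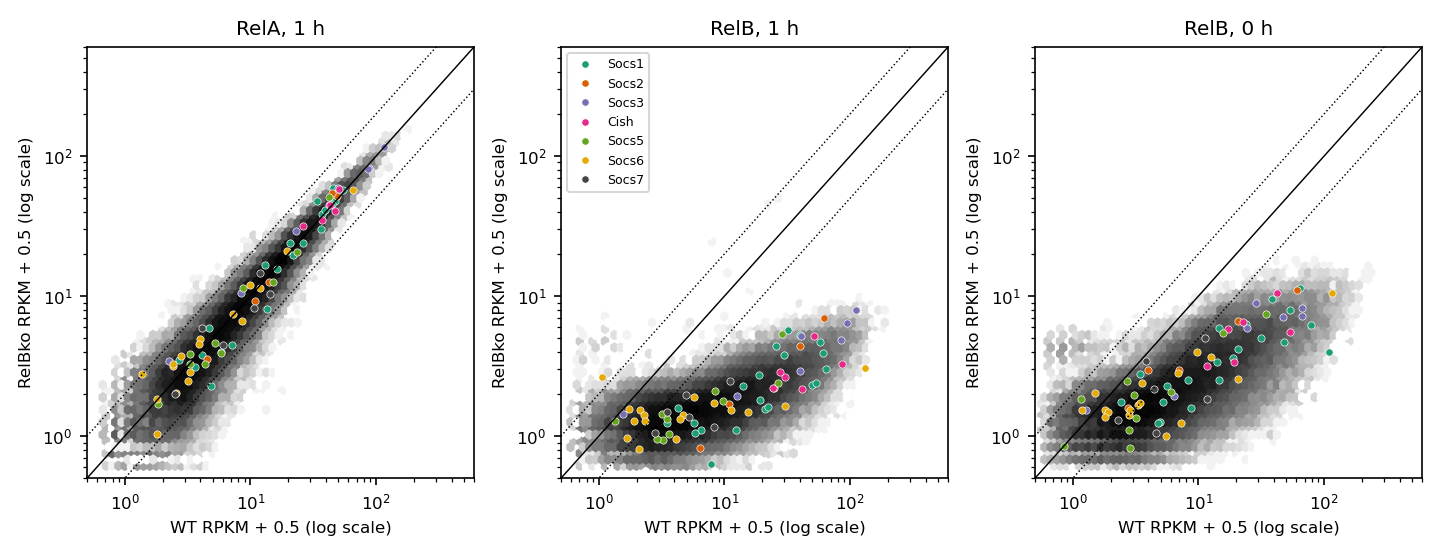
RelBko RPKM against WT RPKM, each plus 0.5 and on log axes, for RelA at 1 h, RelB at 1 h and RelB at 0 h, with member regions as coloured points and all regions of the table as grey density. The solid line marks equal values and the dotted lines 2-fold, and regions of the table beyond the axes are not drawn. Member regions follow the solid line for RelA (r = 0.978), and nearly all lie under it for RelB, where most of the table lies under it too. Setting the table's median ratio to 1 would call 7 member regions higher and 20 lower at 1 h, with 13.7% and 17.7% of all regions called.

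RelB signal was lower in RelBko cells at nearly all SOCS regions, as it was over the whole table, on the deposited scale. At 1 h, 61 of 62 compared member regions were 2-fold or more lower in RelBko cells, where 95.9% of all regions were, and 1 was higher, where 0.128% of all were. At 0 h, 49 of 57 were lower, where 86.0% of all regions were, and 0 were higher, where 0.504% were. The members' median log2 ratio was -2.91 at 1 h, against -2.47 over all regions, and -1.93 at 0 h, against -1.85. These comparisons check the RelBko label and say nothing particular to the family. The libraries' shares of reads in regions, given above, move with them. If the median ratio of all regions is set to 1, which adds the same amount to every log2 ratio, 7 of 62 member regions are 2-fold or more higher at 1 h, where 13.7% of all regions are, and 20 are lower, where 17.7% are. At 0 h 5 of 57 are higher, where 9.84% of all regions are, and 8 are lower, where 15.3% are. Under that scaling the log2 ratios of the strongest regions of Socs5 and Socs7 change sign at both times and stay under 2-fold.
Pooled by gene at 1 h, WT signal was 16.5-fold the RelBko signal for Cish (95% interval 13.7 to 20.0), 13.8-fold for Socs3 (12.0 to 15.9), 13.0-fold for Socs1 (11.6 to 14.7) and 12.1-fold for Socs6 (10.1 to 14.6). It was 10.5-fold for Socs2 (8.53 to 12.9), 6.35-fold for Socs5 (5.14 to 7.92) and 5.15-fold for Socs7 (3.82 to 7.09). The strongest Socs6 region had 17 reads in RelBko cells and 1250 reads in WT cells. The 1 region that was higher in RelBko cells lies 28344 bp upstream of Socs6 and had 2.16 RPKM (13 reads) in RelBko cells and 0.571 RPKM (5 reads) in WT cells.
Some signal above the input remained in the RelBko RelB libraries. The 13 member regions still enriched at 1 h comprised 6 of Socs1, 3 of Socs3 and 1 each of Socs2, Cish, Socs5 and Socs6. Without the Socs6 region, which rests on 13 reads, the other 12 are the regions enriched in all 6 ChIP libraries. The highest was the Socs3 region 22709 bp downstream at 7.47 RPKM in RelBko cells, against 1.24 RPKM in the input. With each gene represented by its region of highest mean signal over the 6 ChIP libraries, Socs3 ranked 48th of the 18215 genes in that library. Socs2 ranked 120th and Socs5 487th. The other members stood far lower, with Cish 3218th, Socs6 3875th, Socs1 4136th and Socs7 6497th. The Socs3 and Socs2 regions rest on 80 and 47 reads there, and at 0 h in RelBko cells Socs3 ranked 1805th. Within RelBko cells, 11 of 28 compared member regions were 2-fold or more lower at 1 h than at 0 h, where 44.1% of all regions were, and 0 were higher, where 0.863% were. The median log2 ratio was -0.77 over the members and -0.93 over all regions. With the median ratio of all regions set to 1, that comparison has 2 member regions higher, where 5.34% of all regions are, and 0 lower, where 2.85% are.

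In WT cells, pooled RelB signal after 1 h of LPS was higher than at 0 h over Socs3, Cish and Socs2. It was near the 0 h level over Socs1 and Socs7. The pooled ratio of 1 h over 0 h was 1.61 for Socs3 (1.53 to 1.68), 1.56 for Cish (1.48 to 1.66) and 1.54 for Socs2 (1.43 to 1.66). All compared regions of these 3 genes, 6 of Socs3, 6 of Cish and 5 of Socs2, were above 0 on the log2 scale. Of the 21 Socs1 regions, 16 were above 0 and 5 below, with a median of 0.13. The Socs1 region 32951 bp downstream alone held 574 of 5648 pooled reads at 1 h and 1449 of 7161 at 0 h. For Socs7, 3 regions were above 0 and 3 below. Pooled ratios were 1.28 for Socs5 (1.16 to 1.41), 1.13 for Socs6 (1.06 to 1.20), 0.973 for Socs1 (0.939 to 1.01) and 0.940 for Socs7 (0.818 to 1.08). These intervals cover counting error only, and the share of reads in regions was 42.4% at 1 h and 38.4% at 0 h. Its part in the ratios was not tested, and the median log2 ratio of all 80966 regions compared was 0.14, against 0.37 over the members.
Of 64 compared member regions, 8 were 2-fold or more higher at 1 h, where 11.0% of all regions were, and 2 were lower, where 1.68% were. The share of higher members, 12.5%, is near that of all regions, and 3 of the 8 were enriched at 1 h only. The largest log2 difference, 1.82, was at a Socs2 region 19938 bp downstream, which had 24.3 RPKM after 1 h and 6.55 RPKM at 0 h, a ratio of 3.71 (2.92 to 4.77). Its neighbour at 18829 bp had 10.4 RPKM after 1 h of LPS, against 3.46 RPKM at 0 h, and the Socs2 region at 7179 bp had 5.94 RPKM after 1 h of LPS, against 2.27 RPKM at 0 h. Every Socs2 region outside the promoters was thus called higher. Of the 2 Socs2 promoter regions, the one 41 bp before its start had a ratio of 1.94 (1.66 to 2.27), just under the call, while the other had 61.9 RPKM after 1 h of LPS, against 59.9 RPKM at 0 h.
The Cish regions 9655 and 11571 bp downstream were called higher. The first had 27.4 RPKM after 1 h of LPS, against 11.2 RPKM at 0 h (ratio 2.44, 1.99 to 3.00), and the second had 40.9 RPKM after 1 h of LPS, against 18.6 RPKM at 0 h (ratio 2.19, 1.86 to 2.60). No Socs3 region passed 2-fold after adding 0.5 RPKM. The Socs3 region 29471 bp downstream came closest, with a log2 ratio of 0.98 on that scale and a ratio of reads of 2.05 (1.52 to 2.77), and the strongest had a ratio of 1.68 (1.56 to 1.81). A Socs5 region 41817 bp downstream had 7.95 RPKM after 1 h of LPS, against 2.34 RPKM at 0 h, and one 17771 bp upstream had 3.11 RPKM (34 reads) after 1 h of LPS, against 0.667 RPKM (9 reads) at 0 h. Socs1 had regions moving both ways. The one 61753 bp downstream had 11.8 RPKM after 1 h of LPS, against 4.49 RPKM at 0 h (ratio 2.62, 2.10 to 3.29). The one 32951 bp downstream had 53.3 RPKM after 1 h of LPS, against 109 RPKM at 0 h (ratio 0.489, 0.443 to 0.539), which made it the strongest Socs1 region before LPS. The other lower region, 28344 bp upstream of Socs6, rests on 5 reads at 1 h and 25 reads at 0 h. None of the 9 promoter regions passed 2-fold, and their median log2 ratio was 0.05. The medians were 0.67 for the 14 compared regions within 10 kb outside promoters, of which 2 were higher, and 0.31 for the 41 beyond 10 kb, of which 6 were higher and 2 lower. The libraries described here include no RelA library without LPS, so the time course covers RelB alone.

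**Figure D4:**
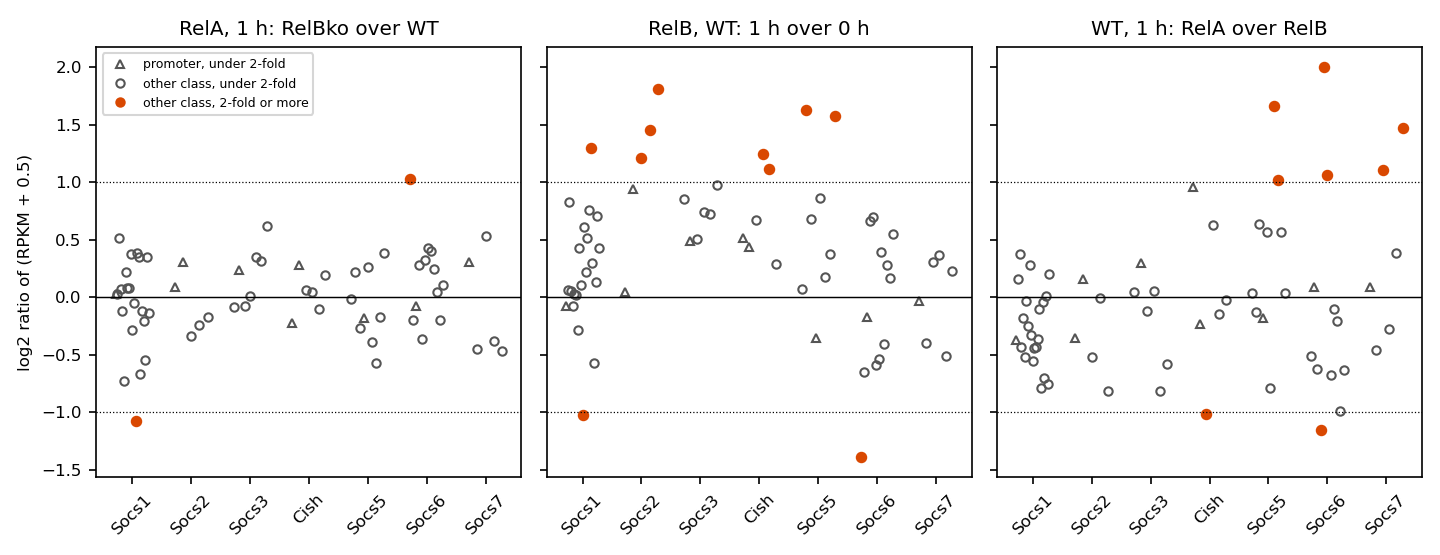
Log2 ratios of RPKM + 0.5 for each compared member region by gene, for RelA at 1 h (RelBko over WT), WT RelB (1 h over 0 h) and WT cells at 1 h (RelA over RelB). Points run from upstream to downstream within a gene, triangles are promoters, filled points passed 2-fold (dotted lines), and each is a ratio of 2 libraries. The 2, 10 and 8 filled points of the 3 panels are all outside promoters.

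RelA and RelB shared most SOCS regions in WT cells at 1 h. Of 65 compared regions, 6 were 2-fold or more higher for RelA than for RelB, where 7.45% of all regions were, and 2 were lower, where 7.21% were. With the median ratio of all regions set to 1 the split is 7 higher, where 9.76% of all regions are, and 1 lower, where 4.43% are. The members' median log2 ratio of RelA over RelB was -0.13, against -0.16 over all regions. Different antibodies made these libraries, so a ratio compares regions with one another and gives no amounts of the 2 proteins. Pooled ratios were 1.00 for Socs3 (0.954 to 1.05) and 1.02 for Cish (0.957 to 1.08), 0.849 for Socs1 (0.812 to 0.888), 0.847 for Socs2 (0.776 to 0.924) and 0.662 for Socs6 (0.612 to 0.715). They were 1.25 for Socs5 (1.13 to 1.39) and 1.49 for Socs7 (1.28 to 1.73).
The strong Cish region of class TTS, 6668 bp downstream, was lower for RelA, with 42.0 RPKM for RelA and 85.4 RPKM for RelB (ratio 0.492, 0.427 to 0.566). The strongest Socs6 region lay just inside 2-fold, with 64.9 RPKM for RelA and 130 RPKM for RelB. The 6 regions higher for RelA carry the names of Socs5, Socs6 and Socs7, and 4 of them were compared only through RelA, since RelB was not enriched over input there. The largest ratio, 4.95 (2.77 to 9.32), was at an intronic Socs6 region 8393 bp downstream, with 8.07 RPKM for RelA and 1.63 RPKM for RelB. Next to it, the Socs6 region at 9491 bp had 3.47 RPKM for RelA and 1.39 RPKM for RelB, while the one at 5889 bp was lower for RelA, with 2.07 RPKM for RelA and 5.24 RPKM for RelB. The Socs7 regions at 42237 and 31861 bp had 13.9 and 5.57 RPKM for RelA, against 4.70 and 2.32 RPKM for RelB. The Socs5 regions at 28135 and 31985 bp had 3.81 and 5.38 RPKM for RelA, against 0.858 and 2.39 RPKM for RelB. The 7 regions that passed 2-fold other than that of Cish rest on 8 to 101 reads in each library.

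The libraries not yet given at the regions that passed 2-fold complete their values. For Socs1, 61753 bp downstream, RelA was 3.95 RPKM in RelBko cells and 6.59 RPKM in WT cells, RelBko RelB was 0.615 RPKM at 1 h against 0.763 RPKM at 0 h, and the input was 0.809 RPKM. At the Socs1 region that was strongest before LPS, 32951 bp downstream, RelA was 29.5 RPKM in RelBko cells and 36.1 RPKM in WT cells, RelBko RelB was 1.89 RPKM at 1 h against 3.47 RPKM at 0 h, and the input was 1.00 RPKM. At the intronic Socs1 region 44237 bp downstream, RelB at 1 h was 0.609 RPKM in RelBko cells and 6.02 RPKM in WT cells, RelB at 0 h was 1.77 RPKM in RelBko cells and 5.08 RPKM in WT cells, and the input was 0.540 RPKM. The RelBko RelB values of all 3 stayed under 4 RPKM, and RelA was strong at the second only.
For Socs2, 7179 bp downstream, RelA was 3.06 RPKM in RelBko cells and 3.98 RPKM in WT cells, RelBko RelB was 0.327 RPKM at 1 h against 1.09 RPKM at 0 h, and the input was 0.724 RPKM. At the next region, 18829 bp downstream, RelA was 8.69 RPKM in RelBko cells and 10.4 RPKM in WT cells, RelBko RelB was 1.19 RPKM at 1 h against 2.48 RPKM at 0 h, and the input was 1.53 RPKM. At the farthest, 19938 bp downstream, RelA was 12.0 RPKM in RelBko cells and 13.6 RPKM in WT cells, RelBko RelB was 1.70 RPKM at 1 h against 2.48 RPKM at 0 h, and the input was 1.55 RPKM. RelA at these 3 Socs2 regions stayed within 2-fold between RelBko and WT cells. For Cish, 9655 bp downstream, RelA was 43.9 RPKM in RelBko cells and 42.6 RPKM in WT cells, RelBko RelB was 2.38 RPKM at 1 h against 2.66 RPKM at 0 h, and the input was 1.04 RPKM. At its neighbour 11571 bp downstream, RelA was 34.3 RPKM in RelBko cells and 36.8 RPKM in WT cells, RelBko RelB was 1.67 RPKM at 1 h against 2.88 RPKM at 0 h, and the input was 2.02 RPKM. Both Cish regions thus had strong RelA in either genotype.
For Socs5, 17771 bp upstream, RelA was 3.36 RPKM in RelBko cells and 2.81 RPKM in WT cells, RelBko RelB was 0.533 RPKM at 1 h against 1.34 RPKM at 0 h, and the input was 0.985 RPKM. On the other side of the gene, 41817 bp downstream, RelA was 10.8 RPKM in RelBko cells and 8.19 RPKM in WT cells, RelBko RelB was 1.59 RPKM at 1 h against 0.323 RPKM at 0 h, and the input was 1.29 RPKM. Neither region had RelB above 2 RPKM in RelBko cells. At the Socs5 region in a 3' UTR, 28135 bp downstream, RelA in RelBko cells was 2.80 RPKM, RelB in RelBko cells was 0.782 RPKM at 1 h against 0.349 RPKM at 0 h, RelB in WT cells at 0 h was 0.348 RPKM, and the input was 0.693 RPKM. At the intergenic Socs5 region 31985 bp downstream, RelA in RelBko cells was 3.46 RPKM, RelB in RelBko cells was 0.455 RPKM at 1 h against 0.846 RPKM at 0 h, RelB in WT cells at 0 h was 2.70 RPKM, and the input was 1.12 RPKM. The same held for these 2.
For Socs6, 28344 bp upstream, RelA was 1.36 RPKM in RelBko cells and 1.29 RPKM in WT cells, and RelBko RelB was 2.16 RPKM at 1 h against 0.928 RPKM at 0 h. RelB in WT cells at 0 h was 2.31 RPKM there, and the input was 0.492 RPKM. Closer to the gene, 16864 bp upstream, RelB at 1 h was 0.313 RPKM in RelBko cells and 1.61 RPKM in WT cells, RelB at 0 h was 1.05 RPKM in RelBko cells and 1.30 RPKM in WT cells, and the input was 0.462 RPKM. Both upstream Socs6 regions were thus faint in every library. At the intronic Socs6 region 5889 bp downstream, RelA in RelBko cells was 1.52 RPKM, RelB in RelBko cells was 1.40 RPKM at 1 h against 1.91 RPKM at 0 h, RelB in WT cells at 0 h was 3.03 RPKM, and the input was 0.922 RPKM. At the region 8393 bp downstream, RelA in RelBko cells was 6.17 RPKM, RelB in RelBko cells was 1.04 RPKM at 1 h against 0.995 RPKM at 0 h, RelB in WT cells at 0 h was 1.41 RPKM, and the input was 0.659 RPKM. At the third intronic one, 9491 bp downstream, RelA in RelBko cells was 4.45 RPKM, RelB in RelBko cells was 0.782 RPKM at 1 h against 1.05 RPKM at 0 h, RelB in WT cells at 0 h was 2.35 RPKM, and the input was 0.693 RPKM. None of these 5 Socs6 regions exceeded 10 RPKM in any library. For Socs7, 31861 bp downstream, RelA in RelBko cells was 3.94 RPKM, RelB in RelBko cells was 0.549 RPKM at 1 h against 0.816 RPKM at 0 h, RelB in WT cells at 0 h was 1.78 RPKM, and the input was 0.541 RPKM. At the other region, 42237 bp downstream, RelA in RelBko cells was 9.93 RPKM, RelB in RelBko cells was 0.871 RPKM at 1 h against 1.67 RPKM at 0 h, RelB in WT cells at 0 h was 3.95 RPKM, and the input was 0.552 RPKM.

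Partners of the SOCS proteins in the same pathway (JAK kinases, STAT factors, cytokine receptors, phosphatases, PIAS proteins, elongins and cullin) were read by the strongest region of each gene, and 48 of 49 listed genes had one. For RelA in RelBko over WT cells, 0 of the 48 passed 2-fold in either direction, with a median log2 ratio of -0.02. Of all regions compared, 1.30% were higher and 4.94% lower. For WT RelB at 1 h over 0 h only Ptpn6, the phosphatase SHP-1 of blood cells, was higher, where 11.0% of all regions were. It had 88.4 RPKM after 1 h against 22.6 RPKM at 0 h. In the same comparison 0 were lower, where 1.68% of all regions were. The list's median was -0.12, where that of all regions was 0.14. For RelA over RelB in WT cells, Il12rb2, a chain of the IL-12 receptor, was higher with 36.6 RPKM for RelA and 14.2 RPKM for RelB. Lepr, the leptin receptor, was lower with 2.71 RPKM for RelA and 8.12 RPKM for RelB. Of all regions compared, 7.45% were higher for RelA and 7.21% lower. For RelB in RelBko over WT cells, 48 of 48 were lower at 1 h, where 95.9% of all regions were, and 45 at 0 h, where 86.0% were. Within RelBko cells 26 of 38 compared were lower at 1 h than at 0 h, where 44.1% of all regions were. The list enters by strongest regions and the table by all regions, so these shares are not like for like. By mean signal over the 6 ChIP libraries, the strongest of the list were Jak2, with RelA at 139 RPKM in RelBko cells and 142 RPKM in WT cells, Stat5a, with 102 RPKM in RelBko cells and 89.1 RPKM in WT cells, and Tyk2, with 99.6 RPKM in RelBko cells and 117 RPKM in WT cells. Jak2 thus carried more RelA per length than any SOCS region.

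The genes whose strongest regions most resembled those of the family were found by the Euclidean distance of log2(RPKM + 0.5) over the 7 libraries, among 18214 genes. Socs3 was nearest to Cd40, a co-stimulatory receptor of dendritic cells (distance 0.457, where the median over all genes was 6.41), and to Gm12532 (0.537). The Cd40 region had RelA at 126 RPKM in RelBko cells and 124 RPKM in WT cells, and RelB at 1 h at 6.37 RPKM in RelBko cells and 133 RPKM in WT cells. Socs1 was nearest to Dhrs3 (0.412) and Ssbp4 (0.416), Cish to Hoxb5os (0.338) and Cd1d1 (0.458), and Socs2 to Plekhm3 (0.342) and 4930552P12Rik (0.395). Socs5 was nearest to Adgrb2 (0.611) and Orm2 (0.649), Socs6 to Mtmr4 (0.521) and Gm33677 (0.547), and Socs7 to Anp32e (0.262) and Rnf6 (0.278). No member was among the 2 nearest genes of another.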

How the data were processed

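The deposited table gives RPKM values calculated by the authors, per the file headers, for 7 libraries over 93611 regions, with the nearest gene, a class and the distance to its TSS. Per the submitters' processing notes, the mouse build was mm9 and the tools included bedtools, HISAT2 and HOMER. What each tool did, its version and the choice of regions is not given in the sources used here. Coordinates are mm9, counted from 1.

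RPKM multiplied by region length was a whole multiple of 1 read in 100% of values (within 0.01 read), so reads and library totals were recovered. No region held 0 reads in any library, so 1 read may have been added to each count, and read numbers may be 1 too high. With 1 library per group, regions were compared by fold as described above, over the whole table. Values in all libraries are given for each gene's strongest and nearest region, and for regions that passed 2-fold between RelA libraries, WT times or antibodies. Intervals are exact at 95% and cover counting error only, since reads are not independent molecules. Calling was tested on simulated counts with changes larger than 2-fold and counting error only. That test says nothing of calls near 2-fold or of variation between replicates. Members, gene lists, motifs and tests were chosen with earlier results of these data known. Listed genes were matched by symbol, and those listed under both an older and a newer symbol (Elob, Eloc and Adgre1) were counted once. Alternatives changed the pseudocount, scaling, filters, added read and distance limit. Software was Python 3.11.15, numpy 2.4.6, pandas 2.3.3, scipy 1.17.1 and matplotlib 3.10.9.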

Additional observations from a re-analysis of the deposited data

How the results depend on the processing

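No paired analysis was possible because each group holds 1 library. Of 8 alternatives, those not named here kept each count of member regions within 1.5 times. The count for RelA in RelBko over WT cells, 2, became 0 with a pseudocount of 1 RPKM, 1 with enrichment at 4 RPKM and 0 within 10 kb of the TSS. With the median ratio of all regions set to 1, RelB in RelBko over WT cells gave 27 regions at 1 h and 13 at 0 h, and RelBko 1 h over 0 h gave 2. That last comparison gave 6 with a pseudocount of 1 RPKM and 6 when scaled on unenriched regions, and RelA over RelB gave 5 with a pseudocount of 1 RPKM. Within 10 kb, which leaves 24 regions, RelB in RelBko over WT cells gave 22 at 1 h and 20 at 0 h, WT 1 h over 0 h gave 2, RelBko 1 h over 0 h gave 7 and RelA over RelB gave 4. Enriched regions within 10 kb numbered 22 in RelBko cells and 22 in WT cells for RelA, 6 in RelBko cells and 22 in WT cells for RelB at 1 h, and 16 in RelBko cells and 23 in WT cells for RelB at 0 h.

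Among the strongest and nearest regions of each gene only, setting the median ratio to 1 made 10 log2 ratios of RelB in RelBko over WT cells positive. All 10 were under 2-fold. At 1 h they were Socs5 strongest 0.055 and Socs7 0.29 (strongest and nearest). At 0 h they were Socs5 strongest 0.32, Socs7 0.67 (strongest and nearest), and the nearest regions of Socs2 0.20, Socs3 0.15, Cish 0.062 and Socs6 0.053. This follows from the scaling itself, which adds 2.47 and 1.85 to every ratio. Few reads limit the weak regions and the RelBko RelB libraries.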
